A study of Homo sapiens with 9 samples.

Results

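The genes described here are 10 direct targets of p53 that act in cell cycle arrest, feedback on p53 and the stress response: CDKN1A, MDM2, BTG2, GDF15, SESN1, TP53INP1, ZMAT3, RRM2B, FAS and TNFRSF10B. They were taken by symbol as known targets when their measured differences between these conditions were already known, so they are treated as selected on the same 3 comparisons that follow. Their folds and counts are therefore a description with no test. All 10 were among the 26475 rows of the count table and among the 13784 genes with enough counts to be tested. RNA was measured in hTERT_RPE1, an established line of human retinal pigment epithelial cells immortalised with telomerase. There were 9 libraries, 3 in each of 3 conditions, all taken 24 h after seeding on fibronectin. In sh_PIP4K2B, cells on glass carried 1 of 3 hairpins (#1, #2 or #3) against PIP4K2B, a lipid kinase of the phosphoinositide pathway, and each hairpin gave 1 library. In Control, cells on glass carried the empty pLKO_1 vector, and in Soft the same vector was used in cells on a 2.3 kPa hydrogel. The sample titles name the empty vector for Control and Soft while another label names a control shRNA, so whether those cells expressed any hairpin is not settled. Those titles number the vector pLKO_1, pLKO_2 and pLKO_3 over the 3 libraries in both conditions. What the numbers stand for is not given. The study asked how losing PIP4K2B compares with growth on a compliant surface.

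p53 is a transcription factor that is kept low by MDM2, an E3 ubiquitin ligase that is itself a p53 target, so that the loop limits its own activity. When DNA damage, nucleolar stress or other insults release p53 from MDM2, p53 binds pairs of a short motif near its targets. Among these, CDKN1A encodes p21, an inhibitor of cyclin-dependent kinases that halts the cell cycle. Other targets lower growth signalling, supply nucleotides for repair or sensitise the cell to death ligands. hTERT_RPE1 cells carry intact p53 and are known to arrest after such insults.

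Library totals ran from 19217346 to 24020799 counts. Levels are given as CPM, counts scaled to a common library total by edgeR's TMM method. PIP4K2B was at 48.4, 40.9 and 36.6 CPM with hairpins #1, #2 and #3, which was 39.6%, 33.5% and 30.0% of the Control mean of 122.1 ± 2.26 CPM (SD, n = 3). In Soft it was at 122.4 ± 3.90 CPM (SD, n = 3). Libraries of sh_PIP4K2B varied more (median SD of log2 CPM 0.36) than those of Control (0.08) or Soft (0.07), and 1 fit shared its estimate of the spread over the 9 libraries. The labels do not say whether the libraries of Control or of Soft came from separate cultures, so their spread may be technical. The visual-cycle and pigment markers RPE65, TTR and TYR were at or near 0 (up to 0.0494 CPM), while the pigment epithelial factors MITF (24.4 to 39.3 CPM) and OTX2 (10.3 to 39.4 CPM) were present. The summed level of 9 pigment epithelial markers was 45.8 to 51.6 CPM for Control, 40.9 to 58.2 CPM for sh_PIP4K2B and 62.2 to 67.4 CPM for Soft. OTX2 was higher than in Control (10.3 to 11.7 CPM) both in sh_PIP4K2B (15.8 to 19.6 CPM) and in Soft (34.8 to 39.4 CPM). MITF was lower in Soft (25.9 to 26.4 against 34.3 to 39.3 CPM), and with the hairpins (24.4 to 37.9 CPM) it overlapped Control. Markers of simple epithelium (5 genes) summed to 1930 to 2090 CPM for Control, 714 to 1130 CPM for sh_PIP4K2B and 907 to 959 CPM for Soft, below Control in every library. KRT8 and KRT18 made up most of this sum, while CDH1 and EPCAM, of the same list, were at or near 0 in all libraries (up to 0.0912 CPM). KRT7 was higher in Soft (15.7 to 16.1 CPM) than in Control (12.4 to 12.8 CPM). The 5 mesenchymal markers summed to 9270 to 9370, 4430 to 8540 and 6780 to 7080 CPM in the same order, most of it VIM. VIM and THY1 were lower than in Control in every library of sh_PIP4K2B and Soft. COL1A1 was higher than in Control (127 to 135 CPM) in sh_PIP4K2B (174 to 389 CPM) and in Soft (245 to 271 CPM). PDGFRB was higher in Soft (191 to 196 against 27.3 to 28.1 CPM) and ran from 18.1 to 94.6 CPM with the hairpins. COL1A2 was barely detected, at 0.568 to 0.931 CPM in Control and 0.184 to 0.593 CPM with the hairpins. In Soft it was at 0.0456 to 0.223 CPM, which rests on a few reads. The 4 blood markers (0.434 to 1.14 CPM) and 3 neuronal markers (1.16 to 3.86 CPM) were low in all libraries. The 3 endothelial markers summed to at most 0.874 CPM on glass and to 4.87 to 5.86 CPM in Soft, nearly all of it PECAM1, which was at 0.0439 to 0.218 CPM for Control, 0.0482 to 0.346 CPM for sh_PIP4K2B and 4.34 to 5.33 CPM for Soft. CDH5, of the same list, was at 0 to 0.0482 CPM. The part of these markers in the results was not tested.

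The p53 motif itself was looked for near each member, as a description of the sequence. Binding of p53 was not measured, so a match alone does not make a gene a direct target. The window held the 3000 bases before and after the start of the canonical transcript in hg38 (GENCODE 44). The search was for the p53 consensus of a pair of adjacent 10-base motifs without a spacer, read on both strands, with the core C and G kept and at most 2 other mismatches in 20 bases. Of 10 members, 8 (80.0%) had such a match, beside 579 of 12647 windows of tested genes (4.58%) and 11 of 37 other p53 targets (29.7%). SESN1 and TP53INP1 had none in this window, which says only that these letters are not in it. In ZMAT3 the match had 0 mismatches, in RRM2B it had 1, and in the others it had 2. The matches of MDM2, ZMAT3, RRM2B, FAS and TNFRSF10B lay in intron 1. Those of CDKN1A, BTG2 and GDF15 lay before the start of the canonical transcript, although for CDKN1A and GDF15 the annotated gene, which holds other transcripts, begins before the match ends. The sequences of 6 members follow, 5′ to 3′ on the strand of the gene, with the 20 matched bases in capitals.
CDKN1A, chr6:36676449-36676468, + strand, centred 2255 bases before the start: gtcagGAACATGTCCCAACATGTTGagctc
MDM2, chr12:68808923-68808942, + strand, intron 1: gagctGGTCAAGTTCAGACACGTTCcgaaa
BTG2, chr1:203303642-203303661, + strand, centred 1867 bases before the start: gggtcACGCATGTTCAGGCATGCATggaat
GDF15, chr19:18385308-18385327, + strand, centred 840 bases before the start: attgcCATCTTGCCCAGACTTGTCTcgaac
ZMAT3, chr3:179070188-179070207, - strand, intron 1: tcataAAACAAGTCCAGACATGCCTaggca
FAS, chr10:88991309-88991328, + strand, intron 1: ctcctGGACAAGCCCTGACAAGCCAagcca

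In the mean, the 10 members were higher in sh_PIP4K2B than in Control, and 9 of them were lower in Soft than in Control. Between sh_PIP4K2B and Control the median log2 fold change was 1.40 over the members and 0.05 over all genes tested, with a range from 0.27 for ZMAT3 to 2.69 for BTG2. Between Soft and Control it was -1.17 over the members and 0.01 over all genes, from -1.83 for FAS to 0.73 for TP53INP1. The 3 Control libraries serve both comparisons. In a bulk sample, fewer cells with a transcript and less of it per cell cannot be told apart.

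**Figure D1:**
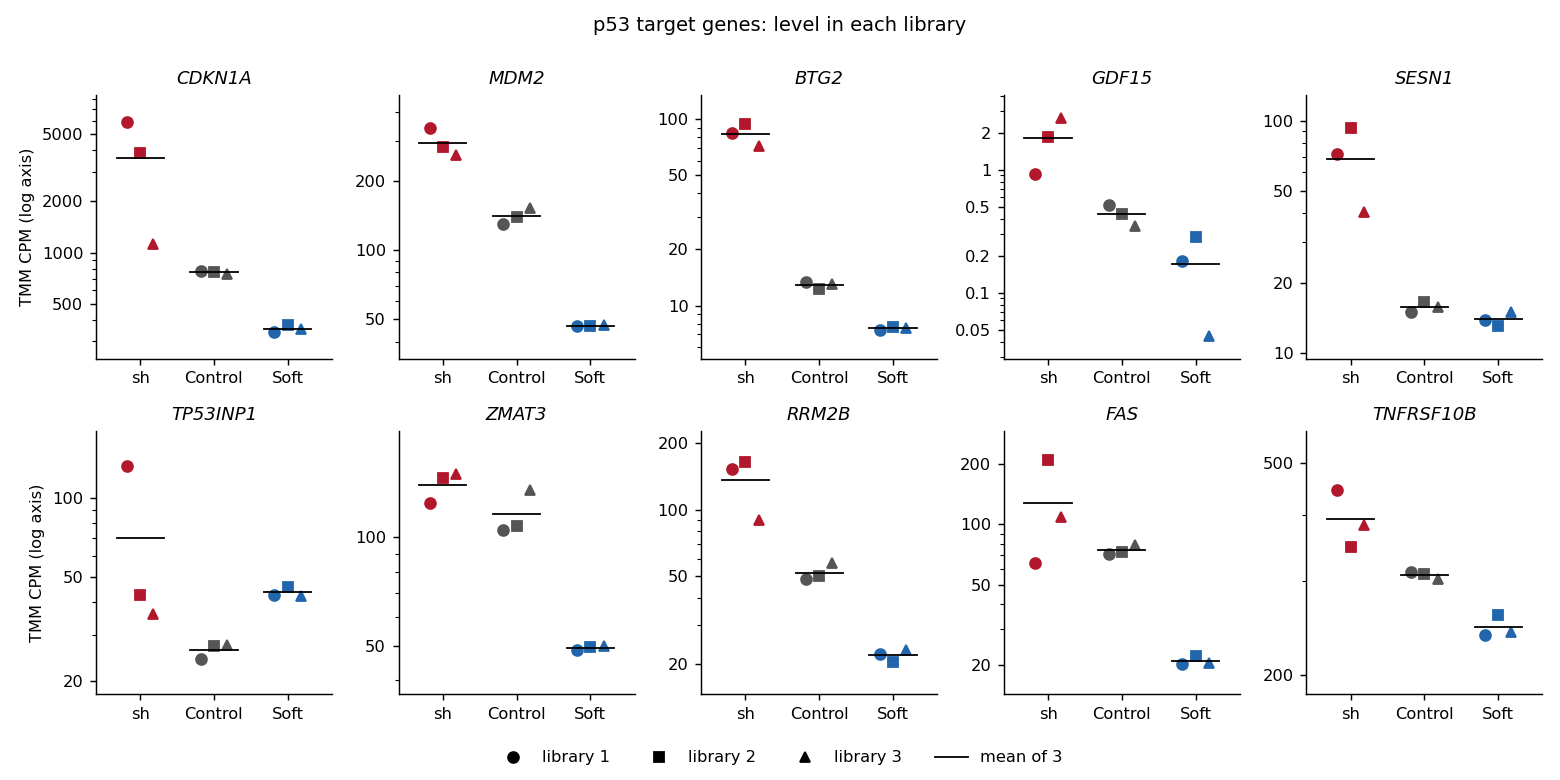
Level of each of the 10 genes in each of the 9 libraries, as TMM-scaled CPM on a log axis of its own in each panel; points are libraries (in sh, the marker gives the hairpin number), and lines are means of 3. CDKN1A runs from 1117 to 5866 CPM in sh_PIP4K2B and from 342 to 372 CPM in Soft, while TP53INP1 is the member whose Soft libraries all sit above Control.

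MDM2 (chr12:68808177-68845544, + strand), the ubiquitin ligase of the feedback loop, was at 342, 280 and 260 CPM with hairpins #1, #2 and #3. In Control it was at 130, 139 and 153 CPM, and in Soft at 46.7, 46.6 and 47.0 CPM. The 3 conditions do not overlap, and the Soft libraries differ from each other by less than 1 CPM. The log2 fold change was 1.06 (SE 0.12) in sh_PIP4K2B and -1.59 (SE 0.13) in Soft. Of the 75-base stretches of this transcript 5.27% are found in other genes too, and counts from those stretches are uncertain.

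CDKN1A (chr6:36676460-36687337, + strand), which encodes p21, was at 5866, 3888 and 1117 CPM with hairpins #1, #2 and #3. In Control it was at 778, 773 and 744 CPM, and in Soft at 342, 372 and 355 CPM. Every hairpin library was above every Control library and every Soft library below, but hairpin #3 was far under the other two. The log2 fold change was 2.24 (SE 0.46) in sh_PIP4K2B, a mean 4.74 times that of Control, and -1.10 (SE 0.45) in Soft. With hairpin #1, CDKN1A alone took 0.631% of all counts and ranked 6 among the genes, while in Control it took 0.0709% to 0.0744% and ranked 156 to 166. In Soft its rank was 394 to 428.

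BTG2 (chr1:203305491-203309602, + strand), an antiproliferative co-regulator of mRNA deadenylation and transcription, was at 84.6, 94.5 and 71.5 CPM with the 3 hairpins. Control libraries were at 13.4, 12.3 and 13.1 CPM and Soft libraries at 7.39, 7.71 and 7.60 CPM. Of the members it had the largest mean ratio between sh_PIP4K2B and Control, 6.47 (log2 fold change 2.69, SE 0.13), and its 3 hairpins were close to each other. In Soft the log2 fold change was -0.77 (SE 0.12).

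SESN1 (chr6:108984309-109094846, - strand), a sestrin that restrains mTORC1 and limits oxidative damage, was at 72.0, 93.3 and 40.3 CPM with the hairpins. Control was at 15.0, 16.6 and 15.7 CPM and Soft at 13.9, 13.1 and 15.0 CPM. The hairpin libraries stood far above both other conditions (log2 fold change 2.12, SE 0.26, against Control). The highest Soft library and the lowest Control library were both at 15.0 CPM, the Soft one lower only in further digits, and the log2 fold change in Soft was -0.17 (SE 0.25).

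TP53INP1 (chr8:94925972-94949378, - strand), a stress-induced cofactor of p53 that also acts in autophagy, was at 133, 42.8 and 36.1 CPM with the hairpins. It was at 24.3, 27.2 and 27.4 CPM in Control and at 42.6, 45.8 and 42.4 CPM in Soft. Soft was above Control in every library, unlike the other members, and overlapped the hairpin libraries. The log2 fold change was 1.42 (SE 0.42) in sh_PIP4K2B and 0.73 (SE 0.41) in Soft. Without the hairpin #1 library the first value was 0.58.

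GDF15 (chr19:18374731-18389176, + strand), a secreted stress cytokine of the TGF-beta family, was barely detected. It had 20 to 53 counts in the hairpin libraries, 8 to 11 in Control and 1 to 6 in Soft. The hairpin libraries were at 0.921, 1.83 and 2.62 CPM. Control was at 0.512, 0.439 and 0.350 CPM and Soft at 0.182, 0.286 and 0.0447 CPM. The conditions do not overlap at these low counts. The log2 fold change was 2.03 (SE 0.48) in sh_PIP4K2B and -1.33 (SE 0.62) in Soft, and the second rests on a few reads.

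RRM2B (chr8:102204502-102238961, - strand), the p53-inducible small subunit of ribonucleotide reductase that supplies deoxynucleotides outside S phase, was at 153, 164 and 89.5 CPM with the hairpins. Control was at 48.4, 50.1 and 57.5 CPM and Soft at 22.3, 20.4 and 23.2 CPM, with no overlap between conditions. Against Control, RRM2B had a log2 fold change of 1.38 (SE 0.21) with the hairpins and -1.24 (SE 0.21) in Soft. RRM2, the small subunit used in S phase, fell in sh_PIP4K2B (-1.06, SE 0.16, edgeR adjusted p = 0.00326) and in Soft (-1.05, SE 0.16, edgeR adjusted p = 0.000701). Without Control replicate 1, 2 or 3 or Soft replicate 3, the first call on RRM2 was lost (adjusted p 0.0104 to 0.0197, edgeR). The large subunit RRM1 fell in Soft (-0.67, SE 0.10, edgeR adjusted p = 0.000695) and was at -0.47 (SE 0.10, edgeR adjusted p = 0.0150) in sh_PIP4K2B, which passed 0.01 without any 1 of the 3 hairpin libraries (0.0028 to 0.00944).

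ZMAT3 (chr3:178960121-179072215, - strand), a zinc finger protein that binds RNA and affects splicing, was at 124, 146 and 149 CPM with the hairpins and at 105, 108 and 136 CPM in Control, ranges that overlap. In Soft it was at 48.5, 49.6 and 49.8 CPM, below every other library. This gave log2 fold changes of 0.27 (SE 0.13) in sh_PIP4K2B and -1.23 (SE 0.13) in Soft.

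The death receptors differed in size of response. FAS (chr10:88953813-89029605, + strand), the receptor of FAS ligand, was at 64.5, 209 and 109 CPM with hairpins #1, #2 and #3. Control was at 71.4, 72.8 and 78.7 CPM and Soft at 20.1, 22.1 and 20.3 CPM. Hairpin #1 lay below Control and the other two above it. The log2 fold change was 0.78 (SE 0.33) in sh_PIP4K2B, or 0.22 without the hairpin #2 library, and -1.83 (SE 0.35) in Soft. TNFRSF10B (chr8:23020133-23069031, - strand), a receptor of the death ligand TRAIL, was at 446, 348 and 382 CPM with the hairpins. It was at 312, 309 and 303 CPM in Control and at 238, 260 and 241 CPM in Soft. Its 3 conditions do not overlap, yet they differ by small ratios (log2 fold change 0.35, SE 0.12, and -0.33, SE 0.12). The ligand genes FASLG and TNFSF10 and the GDF15 receptor gene GFRAL did not have enough counts to be tested.

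**Figure D2:**
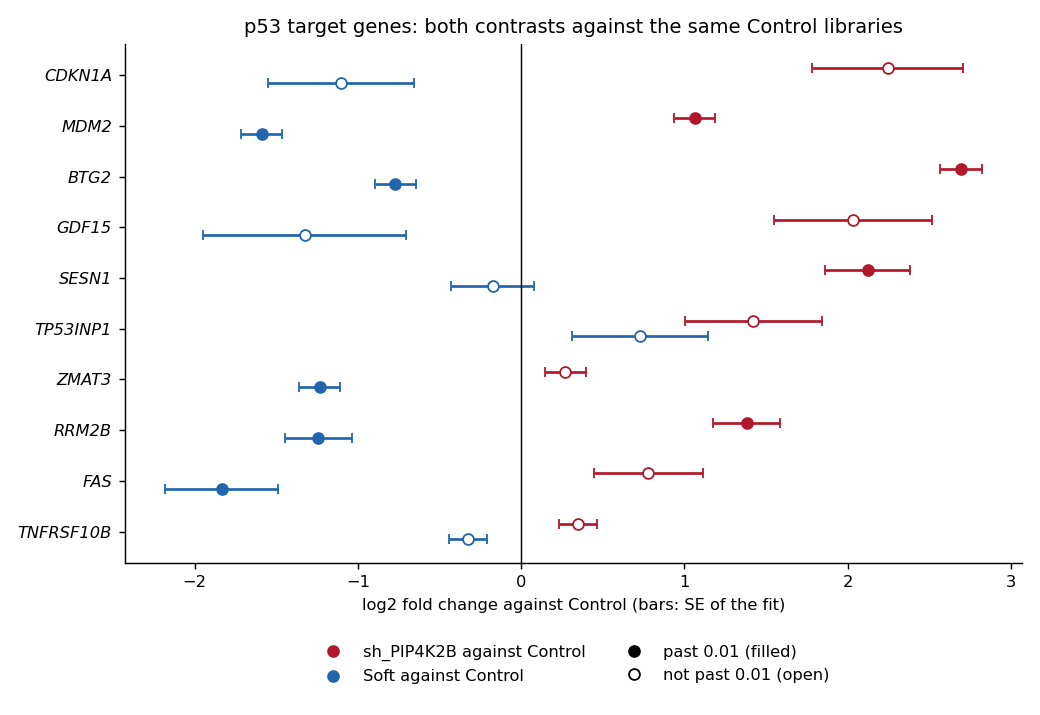
Log2 fold change of each gene against Control, for sh_PIP4K2B (red) and Soft (blue), with bars of 1 SE from the edgeR fit; filled points passed an adjusted p of 0.01 and open points did not. BTG2 is farthest to the right at 2.69 and FAS farthest to the left at -1.83, and the bars of CDKN1A and GDF15 are wide.

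At an adjusted p of 0.01 (edgeR), 4 of the 10 members passed as higher in sh_PIP4K2B than in Control (MDM2, BTG2, SESN1 and RRM2B) and 0 as lower, beside 2.76% of all genes tested as higher and 2.77% as lower. In Soft against Control, 0 passed as higher and 5 as lower (MDM2, BTG2, ZMAT3, RRM2B and FAS), beside 15.8% and 14.8% of all genes. The groups did not overlap for 8 members in sh_PIP4K2B against Control, all higher (17.4% of all genes). In Soft against Control they did not overlap for 10 members, 1 higher (40.4% of all genes) and 9 lower (39.1%). Since the members were chosen with these contrasts known, nothing is read from the counts. Without Control replicate 1 or 2 only BTG2 passed in sh_PIP4K2B, and without Control replicate 3 only MDM2 and BTG2. Without hairpin #1 the number was 7, with GDF15, TP53INP1 and FAS added, and without hairpin #3 it was 5, with CDKN1A added. In Soft, FAS was lost without any 1 of the 3 Soft libraries, CDKN1A was added without hairpin #3, and TP53INP1 and TNFRSF10B were added without hairpin #1. A fit of only the 2 conditions compared gave 1 member in sh_PIP4K2B, BTG2, and 8 in Soft. There TP53INP1 passed as higher, and CDKN1A and TNFRSF10B passed as lower beside the 5 named above.

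The direct comparison of Soft with sh_PIP4K2B differs in both the surface and the hairpin. In it, 9 members passed as lower and 0 as higher, beside 15.5% and 14.5% of all genes, and the groups of 9 members did not overlap (26.7% of all genes lower). The median log2 fold change was -2.62 over the members and -0.03 over all genes. BTG2 (-3.46, SE 0.13) had the largest difference, at 11.0 times lower in Soft, with GDF15 and CDKN1A both at 10.2 times lower. TNFRSF10B (-0.67, SE 0.12) had the smallest of those that passed, and it did not pass without Soft replicate 1 or 3. TP53INP1 (-0.69, SE 0.41) did not pass, and its value turned to 0.13 without hairpin #1.

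The hairpin libraries differed in which members stood highest. Relative to the Control mean, CDKN1A was at 7.67, 5.08 and 1.46 times with hairpins #1, #2 and #3, and TP53INP1 at 5.04, 1.63 and 1.37 times. GDF15 ran in the other order, at 2.12, 4.22 and 6.04 times. FAS was at 0.869, 2.81 and 1.47 times, and SESN1 at 4.57, 5.92 and 2.56 times. The ratio of the highest to the lowest hairpin was 5.25 for CDKN1A, 3.67 for TP53INP1 and 3.23 for FAS, against 1.32 for both BTG2 and MDM2 and 1.20 for ZMAT3. Over 2 times the Control mean was reached by 7 members with hairpin #1, 6 with #2 and 3 with #3, beside 7.63%, 4.37% and 8.05% of all genes. The median log2 ratio over the members was 1.42, 1.58 and 0.66, and over all genes 0.01, 0.02 and 0.02. Hairpin #3 gave the lowest value of the 3 for 6 members and the lowest PIP4K2B. With 1 library for each hairpin, a difference between hairpins and a difference between libraries cannot be told apart.

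**Figure D3:**
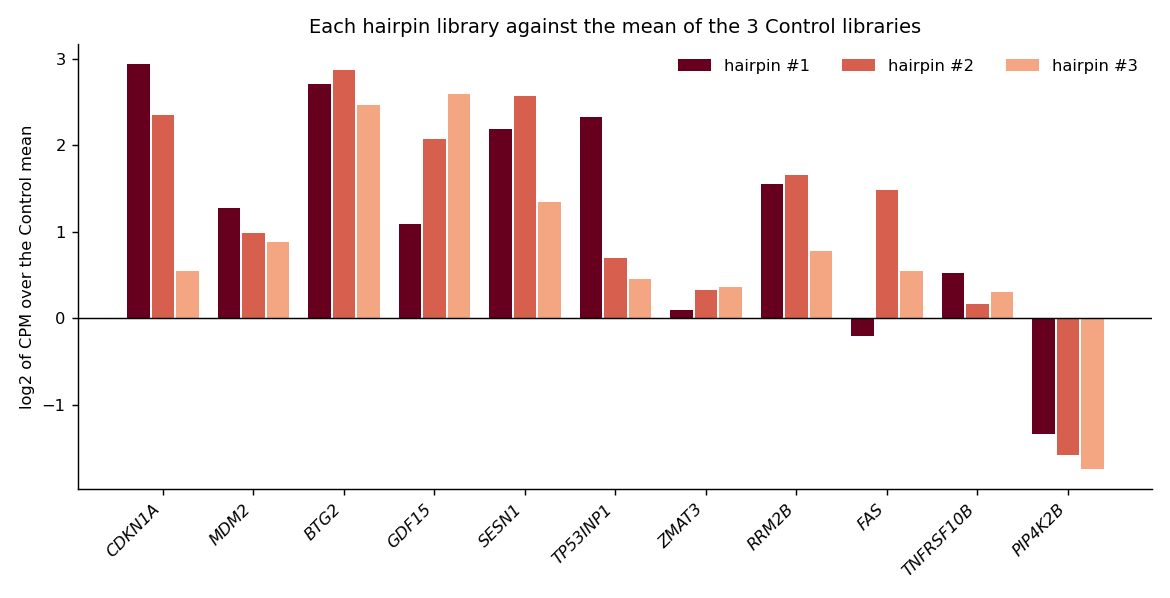
Log2 ratio of each hairpin library (1 library each, no error) to the mean of the 3 Control libraries, for the 10 genes and for PIP4K2B. CDKN1A drops from 2.94 with hairpin #1 to 0.55 with hairpin #3, FAS is at -0.20 with hairpin #1, and BTG2 is between 2.47 and 2.87 with all 3.

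Set per kilobase of the canonical transcript, so that genes can be compared, the members spanned about 3 orders of magnitude in Control. CDKN1A was highest at 361 ± 8.51 CPM per kb (SD, n = 3), followed by TNFRSF10B at 77.1 ± 1.13. FAS (20.1 ± 1.04) and MDM2 (18.8 ± 1.56) came next and lay within their spread of each other. ZMAT3 (13.0 ± 1.90) and RRM2B (10.9 ± 1.02) also lay within theirs, as did BTG2 (4.73 ± 0.203) and TP53INP1 (4.70 ± 0.311). SESN1 was at 2.78 ± 0.137 and GDF15 at 0.361 ± 0.0679 CPM per kb. In sh_PIP4K2B the level per kb of MDM2 was 39.3 ± 5.75, of FAS 34.5 ± 20, of BTG2 30.6 ± 4.22 and of RRM2B 28.4 ± 8.43, neighbours that lay within their spread of each other, and BTG2 and RRM2B were above ZMAT3 (15.6 ± 1.53). In Soft the level per kb of TP53INP1 (7.78 ± 0.341) was above those of MDM2 (6.25 ± 0.0288), FAS (5.64 ± 0.305) and ZMAT3 (5.52 ± 0.0781). All 10 members together took 0.143% to 0.146% of counts in Control and 0.0807% to 0.0858% in Soft. With hairpins #1, #2 and #3 their shares were 0.784%, 0.488% and 0.238%.

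Of 17 genes that control p53, 16 were tested. In sh_PIP4K2B 2 rose and 0 fell at an adjusted p of 0.01 (edgeR), with 4 higher and 3 lower at an unadjusted p below 0.05 and 3 higher and 1 lower by DESeq2, beside 2.76% of all genes as higher and 2.77% as lower. In Soft 3 rose and 3 fell, beside 15.8% and 14.8% of all genes. The median log2 fold change was -0.06 in both. PPM1D, the phosphatase WIP1 that switches off p53 signalling and is itself a p53 target, was at 42.8, 40.0 and 52.7 CPM with the hairpins. It was at 16.3, 17.4 and 17.4 CPM in Control and at 17.0, 15.3 and 15.6 CPM in Soft. PPM1D rose in sh_PIP4K2B (log2 fold change 1.41, SE 0.13, edgeR adjusted p = 0.000518), while in Soft it was at -0.09 (adjusted p = 0.575), and the difference between both conditions passed the test (-1.50, edgeR adjusted p = 4.27e-05). MDM4, the partner of MDM2 that blocks p53's transactivation domain, rose in sh_PIP4K2B (0.80, SE 0.15, edgeR adjusted p = 0.00939), a call lost without any 1 Control or Soft library (0.0219 to 0.0508). ATR, a kinase of the replication stress checkpoint, fell in Soft (-1.16, SE 0.11, edgeR adjusted p = 5.77e-05) and CDKN2A, which encodes p16 and the MDM2 inhibitor ARF, rose there (0.94, SE 0.12, edgeR adjusted p = 0.000246). The counts do not separate its products. Without any 1 Control or Soft library 1 regulator passed in sh_PIP4K2B and 2 or 3 passed in Soft, and without hairpin #1 or #2 the number in sh_PIP4K2B was 4 or 5. In a fit of sh_PIP4K2B and Control only, 0 regulators passed, so neither PPM1D nor MDM4 did.

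Other p53 targets numbered 38, of which 37 were tested. In sh_PIP4K2B 10 rose and 0 fell (edgeR; 22 higher and 1 lower at an unadjusted p below 0.05, 17 and 0 by DESeq2), with a median log2 fold change of 0.68. In Soft 3 rose and 14 fell, with a median of -0.41, and against sh_PIP4K2B 1 was higher and 23 were lower in Soft. Over all genes tested, 2.76% were called higher and 2.77% lower in sh_PIP4K2B, and 15.8% and 14.8% in Soft. Between Soft and sh_PIP4K2B the shares were 14.5% higher and 15.5% lower. ACER2, a ceramidase, was at 31.1, 27.4 and 8.50 CPM with the hairpins against 2.26 ± 0.163 CPM in Control (SD, n = 3) and had the largest rise (3.30, SE 0.43, edgeR adjusted p = 0.00177). That call was lost without Control replicate 1, 2 or 3 (0.0135 to 0.0154). BBC3, the proapoptotic protein PUMA, was at 33.7, 34.1 and 35.2 CPM with the hairpins, 6.99 ± 0.391 CPM in Control and 13.3 ± 0.276 CPM in Soft (SD, n = 3). It rose in both sh_PIP4K2B (2.29, SE 0.11, edgeR adjusted p = 1.78e-05) and Soft (0.93, SE 0.10, edgeR adjusted p = 0.000126). SESN2, a sestrin that ATF4 also induces, rose in sh_PIP4K2B (2.24, SE 0.37, edgeR adjusted p = 0.00458) and was at -0.07 in Soft, and the rise did not pass without any 1 Control or Soft library (0.0105 to 0.0296). The largest falls in Soft were those of GADD45A, a damage-induced binder of PCNA (-1.97, SE 0.33, edgeR adjusted p = 0.00114), and TIGAR, a fructose bisphosphatase (-1.71, SE 0.20, edgeR adjusted p = 0.000178). NINJ1, a membrane rupture protein, rose in Soft (1.90, SE 0.13, edgeR adjusted p = 1.16e-05). TIGAR rose in sh_PIP4K2B (1.10, SE 0.19, edgeR adjusted p = 0.00659), a call lost without hairpin #2 or any 1 Control or Soft library (0.0101 to 0.0425). In that condition NINJ1 (0.63, adjusted p = 0.0107) and GADD45A (0.49, adjusted p = 0.313) passed 0.01 without hairpin #1 (0.00134 and 0.00452). ACER2 in Soft (-0.96, adjusted p = 0.129) passed without hairpin #3 (0.00207). The count in sh_PIP4K2B was 4, 2 and 5 without Control replicates 1, 2 and 3, 6 without any 1 Soft library and 18 without hairpin #3. It was 1 in a fit of that condition and Control only. In Soft it was 11 and 9 without Control replicates 2 and 3, and 10, 10 and 9 without Soft replicates 1, 2 and 3.

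The next list holds cell cycle genes that p53 represses through p21 and the DREAM complex. Of 26 tested, 21 fell and 0 rose in sh_PIP4K2B (edgeR; 25 lower and 0 higher at an unadjusted p below 0.05, 24 and 0 by DESeq2), and the median log2 fold change was -0.92. In Soft, where CDKN1A was lower than in Control, 11 fell and 0 rose (14 lower and 2 higher at an unadjusted p below 0.05, 12 and 0 by DESeq2), with a median of -0.31. Against sh_PIP4K2B, 14 of them were higher and 1 was lower in Soft. Of all genes tested, 2.76% were called higher and 2.77% lower in sh_PIP4K2B, and 15.8% and 14.8% in Soft. Between Soft and sh_PIP4K2B the shares were 14.5% higher and 15.5% lower. MYBL2, a cell cycle transcription factor, fell in both, with a log2 fold change of -1.17 in sh_PIP4K2B (edgeR adjusted p = 0.000425) and -0.58 in Soft (edgeR adjusted p = 0.00101). The proliferation marker MKI67 was at 130, 199 and 146 CPM with the hairpins and 337.1 ± 1.78 CPM in Control (SD, n = 3; log2 fold change -1.09, SE 0.15, edgeR adjusted p = 0.00244), and 273.2 ± 14.9 CPM in Soft (-0.30, adjusted p = 0.13). The MKI67 call was lost without Control replicate 1, 2 or 3 (0.0143 to 0.0159). CDC25A, a phosphatase that activates cyclin-dependent kinases, had the largest fall in Soft (-1.60, SE 0.17, edgeR adjusted p = 9.37e-05) and was at -0.36 in sh_PIP4K2B (adjusted p = 0.152). E2F1, the S phase transcription factor, fell in Soft (-1.02, SE 0.12, edgeR adjusted p = 0.000152) and in sh_PIP4K2B (-0.92, SE 0.12, edgeR adjusted p = 0.00157), where the call was lost without Control replicate 1 or 2 (0.0126 and 0.0129). The count in sh_PIP4K2B was 7, 4 and 9 without Control replicates 1, 2 and 3, and 0 in a fit of that condition and Control only. In Soft it was 7 without Soft replicate 2 or 3.

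ATF4 and CHOP targets are a separate stress pathway that shares some targets with p53, among them GDF15, SESN2 and TNFRSF10B. Of 18 tested, 3 rose and 1 fell in sh_PIP4K2B and 2 rose and 1 fell in Soft, with medians of 0.29 and 0.51. All genes tested gave 2.76% higher and 2.77% lower in sh_PIP4K2B, and 15.8% and 14.8% in Soft. Both counts in Soft were below those shares. DDIT3, which encodes CHOP, was at 55.8, 19.6 and 56.4 CPM with the hairpins against 9.46 ± 0.534 CPM in Control (SD, n = 3) and rose (2.21, SE 0.37, edgeR adjusted p = 0.00484). ATF3, a stress-induced repressor, was at 64.7, 19.03 and 42.3 CPM against 10.5 ± 1.12 CPM (2.00, SE 0.39, edgeR adjusted p = 0.00944). DDIT4, an inhibitor of mTORC1 that hypoxia also induces, rose in sh_PIP4K2B (1.99, SE 0.12, edgeR adjusted p = 7.97e-05) and in Soft (3.18, SE 0.12, edgeR adjusted p = 1.14e-06), and it was higher in Soft than in sh_PIP4K2B (1.18, edgeR adjusted p = 7.57e-05). The transcription factor CEBPB rose in Soft (1.92, SE 0.26, edgeR adjusted p = 0.000364) and passed in sh_PIP4K2B (1.13, adjusted p = 0.0173) without hairpin #2 (0.000664). The amino acid transporter SLC7A5 fell in sh_PIP4K2B (-1.01, SE 0.16, edgeR adjusted p = 0.0041) and Soft (-0.73, SE 0.16, edgeR adjusted p = 0.00474). Calls on SLC7A5 and on DDIT3 were lost without Control replicate 1, 2 or 3 or Soft replicate 1 or 3 (0.0105 to 0.0269 for SLC7A5, 0.0113 to 0.0326 for DDIT3). That on ATF3 was lost without any 1 library other than hairpin #2 (0.011 to 0.0495). The count in sh_PIP4K2B was 1 without any 1 of the Control libraries or Soft replicate 1 or 3, and 7 without hairpin #2. It was 1 too in a fit of that condition and Control only. In Soft it was 5, 6 and 7 without hairpins #1, #2 and #3.

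**Figure D4:**
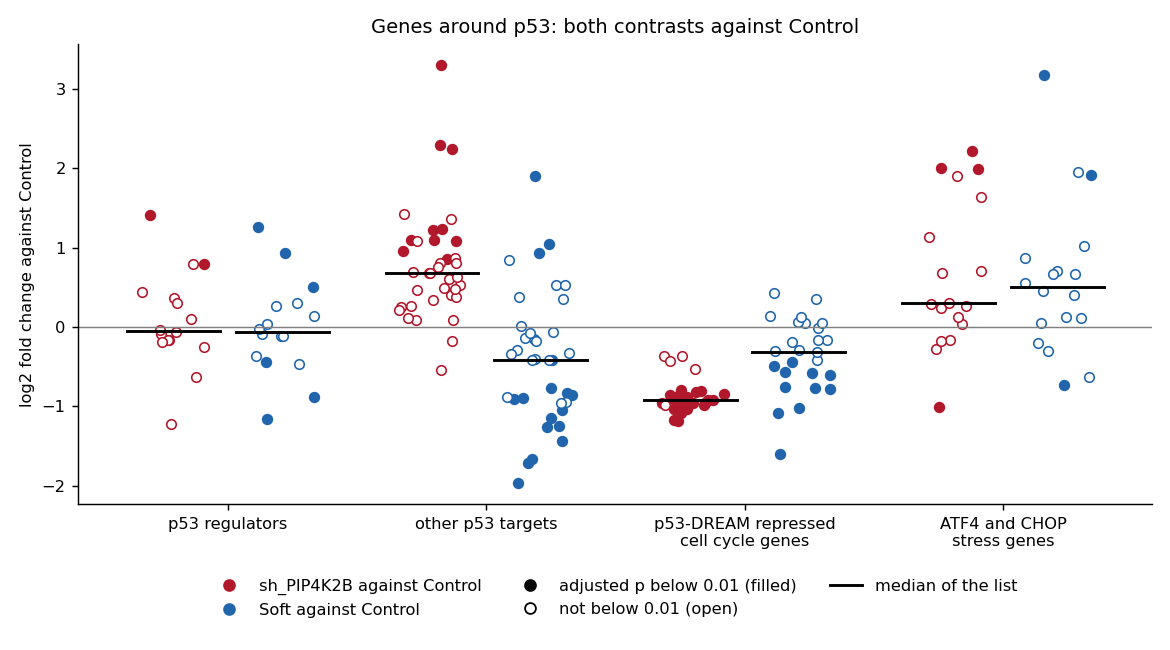
Log2 fold change against Control of each tested gene in 4 lists around p53, for sh_PIP4K2B (red) and Soft (blue); filled points have an adjusted p below 0.01 (edgeR) and lines are medians. The cell cycle genes sit in a narrow band around -0.92 in sh_PIP4K2B, and the other p53 targets have medians of 0.68 and -0.41.

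Paralogs of the members did not share one pattern. CDKN1B, which encodes the kinase inhibitor p27, rose in sh_PIP4K2B (1.36, SE 0.17, edgeR adjusted p = 0.00145) and in Soft (0.97, SE 0.17, edgeR adjusted p = 0.0014), and the first call was lost without Control replicate 1 or 2 (0.0129 and 0.0133). CDKN1C, which encodes p57, was at 0.181 ± 0.0961 CPM in Control and 3.35 ± 0.18 CPM in Soft (SD, n = 3; 4.18, SE 0.39, edgeR adjusted p = 5.15e-05), and was at 1.49 in sh_PIP4K2B (adjusted p = 0.0459). In the Control libraries 3 counts equal 0.131 to 0.140 CPM, so its Control level rests on a few reads. The size of both changes is therefore uncertain. BTG1 rose in Soft (0.85, SE 0.15, edgeR adjusted p = 0.0017), a call lost without Control replicate 2 (0.0108), and was at 0.41 (adjusted p = 0.0926) in sh_PIP4K2B. BTG3 was at 0.24 (adjusted p = 0.454) and -0.63 (adjusted p = 0.031), and the second passed without hairpin #1 or #2 (0.00873 and 0.000775). SESN3 was at 0.553, 8.81 and 12.5 CPM with the hairpins (1.35, SE 0.74, adjusted p = 0.236) and passed without hairpin #1 (0.00127). TP53INP2 was at 0.05 (adjusted p = 0.859) and 0.32 (adjusted p = 0.157).

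Over the 9 libraries, the genes whose pattern was most like the mean of the members were TRAF4, an adaptor of TNF receptors (Pearson r 0.996, Spearman rho 0.933), and BLOC1S2, a lysosome-positioning subunit (0.991 and 0.933). EDA2R, the ectodysplasin A2 receptor, PHLDA3, an inhibitor of AKT, and BLOC1S4 followed at r = 0.988 each, M6PR and BAX at 0.987, POM121C at 0.986, RAD17 at 0.985 and SLC39A9 at 0.984. Of these 10 genes, 4 (BLOC1S2, EDA2R, PHLDA3 and BAX) are in the list of other p53 targets. The median r was 0.022 over the 12110 genes compared and 0.844 over the other p53 targets. By rho the order changes, with RAD17 at rank 27 and BAX at rank 488, and the 9 points fall into 3 conditions that share their libraries with the members.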

How the data were processed

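Poly(A) RNA of 9 hTERT_RPE1 libraries was sequenced by the authors from stranded libraries as paired reads. The authors aligned the reads to GRCh38/hg38, and the submitters' processing notes name STAR and Salmon. They deposited 1 table of estimated counts per gene, neither scaled nor pooled. The annotation and the strand setting of the counting are not given in the sources used here. Of the values 12.3% were not whole, and all were rounded.

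Genes were filtered (filterByExpr), scaled by TMM and tested with edgeR 4.0.16 in R 4.3.3 by the quasi-likelihood F test in 1 fit over 9 libraries, with Benjamini-Hochberg adjustment over 13784 genes and a threshold of 0.01. The standard error was taken from the F statistic. The test was first run on simulated counts with planted changes, in which each gene had the same spread in every group. That run does not bear on the wider spread of the sh_PIP4K2B libraries. DESeq2 1.42.0 was an alternative, with other filters, scalings, samples and a replicate block. p53 motifs were read from hg38 at GENCODE 44 starts, which 12647 tested genes matched by symbol. COP1 was matched by its older symbol.

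Members and gene lists were chosen with earlier results of these data known, the lists from general knowledge, and none is independent support. The genes named are the members, PIP4K2B, MDM4, PPM1D, tested paralogs, and the 3 called genes of each list and comparison against Control with the largest log2 fold change, among those that averaged 50 counts or more in some group. A few genes that this rule names are not reported here. The 10 genes with the highest Pearson r with the members' mean log2 CPM (prior count 2) were named as a description. The lists were p53 regulators, other p53 targets, p53-DREAM repressed cell cycle genes, ATF4 and CHOP stress genes, and markers of other cell types.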

Additional observations from a re-analysis of the deposited data

Results flagged for a closer look

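Several members stood above Control in every hairpin library and below it in every Soft library. Their log2 difference, Soft minus sh_PIP4K2B, was -3.35 for CDKN1A, -2.65 for MDM2, -3.46 for BTG2, -3.36 for GDF15, -2.30 for SESN1, -2.62 for RRM2B and -0.67 for TNFRSF10B. All 7 passed an adjusted p of 0.01 in the direct comparison (edgeR). That is given as a description, since the members were chosen with it known, and both conditions are set against the same Control libraries. The log2 fold change of SESN1 in Soft against Control was only -0.17 (SE 0.25), and GDF15 had 1 to 6 counts in Soft. Among the regulators and paralogs named and the most changed genes of each list, the same layout was seen for ACER2 at -4.26 (adjusted p = 0.000143, edgeR), ATF3 at -2.64 (adjusted p = 0.000718, edgeR) and TIGAR at -2.81 (adjusted p = 2.49e-05, edgeR). Of the genes named for a pattern like that of the members, which that pattern chose, BLOC1S2, EDA2R, PHLDA3 and BAX also have this layout.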

How the results depend on the processing

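No member changed sign in either comparison against Control under the 15 to 17 alternatives run for it, and in Soft against sh_PIP4K2B only TP53INP1 did. Counts moved more, and where they did the cause was not tested. With 763 genes and 4 members called in sh_PIP4K2B against Control, a threshold of 0.05 gave 2375 and 7, DESeq2 2066 and 7, and a fit of only the 2 conditions compared 5 and 1. The same settings gave 5, 4 and 0 p53 regulators (2 in the report), 17, 17 and 1 other p53 targets (10), and the fit of 2 conditions 0 p53-DREAM genes (21) and 1 ATF4 and CHOP gene (4). Regulators numbered 1 with no filter and 1 with upper quartile scaling, and ATF4 and CHOP genes 2 with library size only, which shifts the median log2 fold change of all genes by 0.09 in sh_PIP4K2B and 0.11 in Soft.

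In Soft against Control 4217 genes were called, 6498 at 0.05 and 9601 in a fit of those 2 conditions. That fit called 8 members (5), 31 other p53 targets (17), 21 p53-DREAM genes (11) and 13 ATF4 and CHOP genes (3), the last list 6 at 0.05 and 7 by DESeq2. In Soft against sh_PIP4K2B 4135 genes were called, 6372 at 0.05 and 2183 with those 2 conditions only.

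Deviations from the group means correlated at -0.097 to 0.097 between same-numbered libraries and at -0.168 to 0.185 between the others. With 3 libraries in each group, these values cannot decide whether the numbers pair the libraries. With a replicate block, 295 genes, 3 members, 1 regulator, 6 other p53 targets and 1 ATF4 and CHOP gene were called in sh_PIP4K2B against Control.

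Leaving out each library in turn gave 66 to 2013 genes called in sh_PIP4K2B against Control, 2506 to 6373 in Soft against Control and 2350 to 5374 in Soft against sh_PIP4K2B. Members called were 1 to 7, 4 to 7 and 8 to 9. In sh_PIP4K2B and Soft against Control, regulators were 1 to 5 and 2 to 7, other p53 targets 2 to 18 and 9 to 22, p53-DREAM genes 4 to 23 and 7 to 13, and ATF4 and CHOP genes 1 to 7 and 2 to 7. Where a Control library was left out, the fit takes its spread from the other groups as well.

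A few log2 fold changes that did not pass the test turned sign. PIP4K2B in Soft was between -0.022 and 0.022 with a library left out, -0.011 with no filter, -0.005 with DESeq2 or its size factors, and -0.001 in a fit of 2 conditions. With library size only, PPM1D in Soft was 0.014 and SESN2 in Soft 0.04, and with a library left out SESN2 ran from -0.227 to 0.067. With a library left out in sh_PIP4K2B, CDKN2A ran from -0.026 to 0.189 and TP53INP2 from -0.177 to 0.23. Among the members, depth limits GDF15 most, at 1 to 53 counts.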
